A study of Mus musculus with 16 samples.

Results

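Aminoacyl-tRNA synthetases join each amino acid to its transfer RNA, and the RNA levels of 35 of their genes were followed here in a mouse leukemia cell line with and without knockout of the lactate exporter MCT4, at 20% and at 2% oxygen. The genes were taken by name: 19 encode enzymes of the cytosol and 16, whose symbols end in 2, encode enzymes of the mitochondrion. All 35 were found by symbol among the 53801 genes of the deposited table, and all 35 passed the filter on low counts, which left 13774 genes. Neither the choice of genes nor their division used a measured value, but they were proposed with earlier results of these data known.

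The cells are mouse acute myeloid leukemia driven by MLL-AF9, a fusion of a histone methyltransferase gene with AF9 that transforms blood progenitors, and they grew with serum, interleukin 3 and stem cell factor. MCT4-KO cells carried a guide RNA against MCT4, encoded by Slc16a3, and control cells carried a guide RNA with no target. In both, Cas9 was switched on with 4-hydroxytamoxifen, so the controls had the same nuclease and drug, and each population was kept at 20% or at 2% oxygen. This gave 4 groups of 4 libraries, and the layout asks what loss of MCT4 changes at each oxygen level, what low oxygen changes in either genotype, and whether the effect of the knockout is the same at both oxygen levels. The labels do not say whether the populations were clones, how long they were kept at 2% oxygen, or whether the numbered libraries came from separate cultures, so a p-value speaks only to variation among these libraries, some of which may be technical.

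A synthetase pairs 1 amino acid with its transfer RNAs, and a cell runs this chemistry both in the cytosol and in mitochondria, where imported enzymes, themselves encoded in the nucleus, serve the organelle's own ribosomes. Several cytosolic enzymes sit together in the multisynthetase complex, held by scaffold proteins, while the others act alone. Transfer RNAs that stay uncharged activate the kinase Gcn2, encoded by Eif2ak4, and this favours translation of the transcription factor Atf4, whose known targets include genes of amino acid synthesis, amino acid transport and many cytosolic synthetases.

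Each library had 21192179 to 28871459 estimated counts, and levels are given as CPM, the count of a gene scaled to the size of its library, after TMM scaling. At 20% oxygen Slc16a3 stood at 235, 199, 184 and 222 CPM with the control guide and at 70.4, 72.4, 82.1 and 94.7 CPM in MCT4-KO cells. At 2% oxygen its levels were 789, 844, 809.7 and 804 CPM and 370.3, 369, 358 and 363 CPM, and the genotypes were apart at both oxygen levels. Of 12 myeloid progenitor markers 12 had a mean of at least 1 CPM, while the markers of fibroblasts and of endothelium each summed to at most 0.561 CPM in a library, and the T cell markers Cd3e and Cd4, the fibroblast marker Col1a2 and the endothelial markers Cdh5 and Kdr were at 0 in every library. Erythroid markers summed to 1.04 to 2.64 CPM. Replicate 4 of the control group at 2% oxygen stood apart from its group, with a chi-square per gene of 8.61 to 12.87 against the other three, which differed from each other by 2.55 to 3.38. The counts of called members, of groups without overlap, of ratios and of list genes that rest on this group were also made without this replicate, and are printed beside the first ones or where they differ. Libraries at 20% oxygen were uneven too, differing by 3.53 to 9.25 in the control and 2.49 to 7.72 in the MCT4-KO group. Calls of members and class medians were also made leaving out each library in turn, but the other counts were not.

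Cytosolic synthetase genes were far more abundant than mitochondrial ones when compared per length. In control cells at 20% oxygen the 19 cytosolic genes had a median of 48.4 CPM per kilobase of exon, from 15.6 for Cars, the cysteine enzyme, to 178 for Nars, the asparagine enzyme. The 16 mitochondrial genes had a median of 4.19 CPM per kilobase, from 1.32 for Mars2, the methionine enzyme, to 28.1 for Lars2, the leucine enzyme. The ratio of the class medians was 11.5 ± 0.456 (SD, n = 4 libraries). Per kilobase of exon the classes overlapped at their edges. Lars2 and, at 16.6 CPM per kilobase, the arginine enzyme Rars2 stood above Cars. Lars2 also stood above Farsa at 23.1 and Qars at 21.2. This order depended on the length used. Per kilobase of the longest transcript, Rars2, at 24.7 CPM, stood below Cars, at 31.9, and below Farsa, the lowest cytosolic gene, at 31.4. Lars2, at 80.1, then lay well inside the cytosolic range, between Lars at 83.1 and Kars at 78.8. Eprs moved from rank 14 to rank 4 among all members. After Nars, the highest levels per kilobase of exon were 147 for Gars, the glycine enzyme, and 114 for Wars, the tryptophan enzyme. Gars and Kars, the lysine enzyme, each encode both the cytosolic and the mitochondrial form of their enzyme, and were counted with the cytosolic genes because they are so named. Over all 16 libraries the counts ran from 1324 to 20823 for cytosolic and from 145 to 8693 for mitochondrial genes, so no member was near the limit of detection, which was on average 0.124 CPM for 3 counts.

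Low oxygen separated the cytosolic genes in control cells into a large group that fell and a small group that rose. At 2% against 20% oxygen, 14 of the 19 cytosolic genes fell, 4 rose and 1, Farsa, was not called, with a median log2 fold change of -0.71. Of the 16 mitochondrial genes 9 fell, 3 rose and 4 were not called, with a median of -0.19. Calls were made at an adjusted p under 0.05 in edgeR's quasi-likelihood F-test with Benjamini-Hochberg adjustment over all 13774 genes. Low oxygen changed most genes of these cells: 78.3% of all tested genes were called, 39.6% as lower and 38.7% as higher, and the median over all tested genes was -0.02. The summed cytosolic level went from 5885 to 6404 CPM in the 4 control libraries at 20% oxygen to 3961 to 4190 CPM at 2%, and the summed mitochondrial level from 721 to 786 CPM to 641 to 672 CPM, with no overlap in either class. Lars2 alone held 275 to 334 CPM of the mitochondrial sum at 20% oxygen and 245 to 272 CPM at 2%. Without replicate 4 of the control group at 2% oxygen the counts were again 14 and 4 cytosolic and 9 and 3 mitochondrial genes. Of the cytosolic genes 14 lay lower and 4 higher at 2% oxygen with no overlap between libraries, where 35.3% and 34.9% of all tested genes did so.

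**Figure D1:**
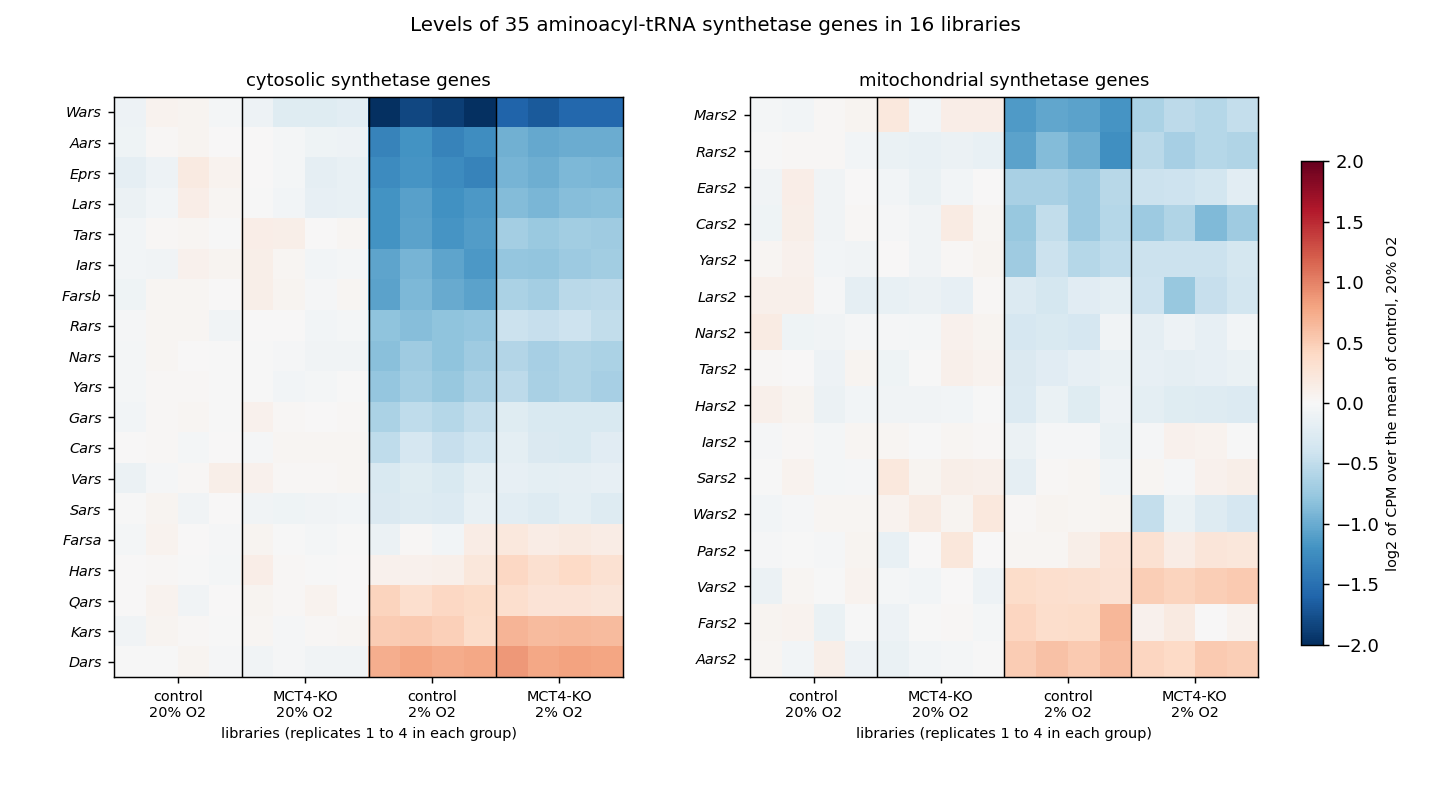
Level of each of the 35 genes in each of the 16 libraries, as the log2 of its CPM over the mean of the control group at 20% oxygen (colour, cut at 2 and -2). Genes are rows, ordered within the cytosolic and the mitochondrial panel by their low-oxygen effect in control cells; libraries are columns in 4 blocks of 4. The upper cytosolic rows are blue in both 2% blocks and paler in MCT4-KO cells, and Dars, Kars and Qars at the bottom are red.

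Wars, the cytosolic tryptophan enzyme and also known as an interferon-induced gene, fell most. Its levels were 367, 415, 408 and 383 CPM in the control libraries at 20% oxygen and 95.9, 111, 107 and 94.3 CPM at 2%, listed by replicate number, which has no order. All 4 low-oxygen libraries lay far below the lowest library at 20%, a log2 fold change of -1.95 ± 0.0522 (SE; edgeR adjusted p = 6.37e-18). Aars, the alanine enzyme, followed with 649, 702, 715 and 698 CPM at 20% oxygen and 273, 302, 274 and 292 CPM at 2%, a log2 fold change of -1.28 ± 0.0394 (SE; edgeR adjusted p = 5.92e-17). Eprs, which joins the glutamate and the proline enzyme in 1 protein, went from 617, 649, 794 and 729 CPM to 291, 307, 292 and 277 CPM, a log2 fold change of -1.26 ± 0.0619 (SE; edgeR adjusted p = 1.27e-13). Lars, the leucine enzyme, went from 305, 318, 361 and 339 CPM to 144, 155, 142 and 150.0 CPM, a log2 fold change of -1.16 ± 0.0487 (SE; edgeR adjusted p = 9.17e-15). In none of these 3 genes did the oxygen levels overlap, and the fitted level at 2% oxygen was 0.413 to 0.447 times that at 20%. Tars (threonine) at -1.14, Iars (isoleucine) at -1.05 and Farsb (the beta subunit of the phenylalanine enzyme) at -1.01 had log2 fold changes of about -1, and the other 7 that fell, Rars, Nars, Yars, Gars, Cars, Vars and Sars, ran from -0.81 to -0.24.

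The 4 cytosolic genes that rose at 2% oxygen in control cells were Dars, Kars, Qars and Hars. Dars, the aspartate enzyme, had 259, 259, 270.5 and 257 CPM at 20% oxygen and 432, 451, 437 and 446 CPM at 2%, a log2 fold change of 0.76 ± 0.0299 (SE; edgeR adjusted p = 3.49e-15). Kars had 181, 198, 194 and 189 CPM and 272, 274, 265 and 246 CPM, a log2 fold change of 0.47 ± 0.0356 (SE; edgeR adjusted p = 1.39e-10). Qars, the glutamine enzyme, had 139.5, 146, 132 and 139.7 CPM and 189, 175, 186 and 181 CPM, a log2 fold change of 0.39 ± 0.0348 (SE; edgeR adjusted p = 1.81e-09). In these 3 genes every low-oxygen library lay above every library at 20% oxygen, and all 3 encode enzymes of the multisynthetase complex. Hars, the histidine enzyme, moved less, from 76.8, 77.1, 76.1 and 74.5 CPM to 81.1, 81.1, 82 and 88.9 CPM, and its rise depends on the scaling: the log2 fold change was 0.13 ± 0.0394 (SE; edgeR adjusted p = 0.00547) with TMM and -0.08 (edgeR adjusted p = 0.0648) with library size alone. Farsa, the alpha subunit of the phenylalanine enzyme, was not called at 0.01 ± 0.0446 (SE), while its partner Farsb fell by 1.01 on the log2 scale.

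The multisynthetase complex did not move as 1 block. Of its 7 enzyme genes in the list, Eprs, Lars, Iars and Rars fell in control cells at 2% oxygen and Dars, Kars and Qars rose, with a median log2 fold change of -0.81. Of the 12 free cytosolic enzymes 10 fell, 1 (Hars) rose and 1 (Farsa) was not called, with a median of -0.63. Of all tested genes 39.6% were called lower and 38.7% higher, so a division in both directions is not particular to the complex. Among the scaffold genes, Eef1e1 (AIMP3) fell by 0.66 and Aimp2 by 0.21 on the log2 scale, while Aimp1 was not called at -0.10, but was at -0.15 (edgeR adjusted p = 0.00234) without control replicate 4 of the 2% group.

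**Figure D2:**
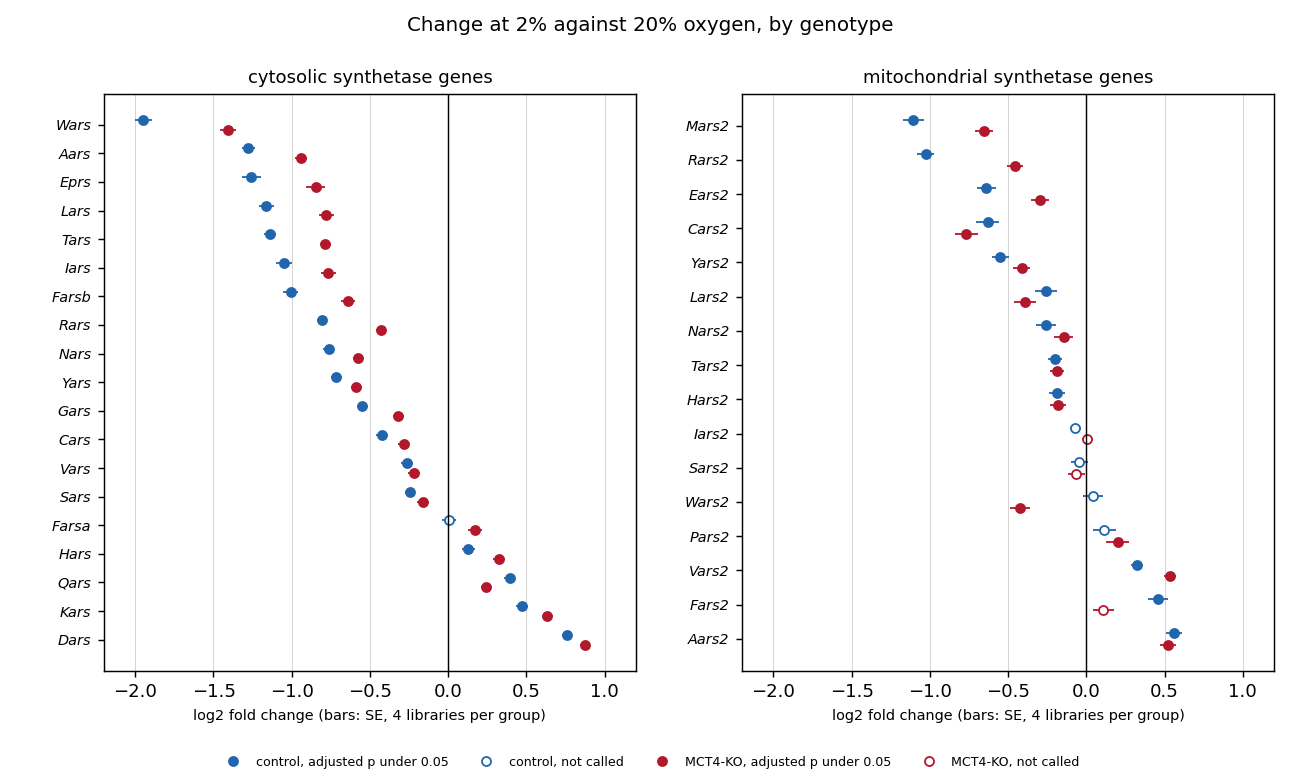
Log2 fold change at 2% against 20% oxygen for each gene in control (blue) and MCT4-KO cells (red), with SE bars from 4 libraries per group; filled points passed an adjusted p of 0.05 and open points did not. Most cytosolic points lie left of 0 and the red point is nearer to 0 than the blue one from Wars down to Sars; Dars, Kars, Qars and Hars lie right of 0 in both genotypes.

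Promoters of the members were also searched, as a description of their letters. Atf4 with a C/EBP partner is known to bind a composite element whose letters are TGATGNAA. RefSeq promoters (GRCm38.p6, 250 bases before to 50 after the start) were at hand for 26 of the 35 genes, and Cars, Hars, Hars2, Lars, Nars, Pars2, Rars, Vars and Wars were not among them. Searched on both strands, TGATGNAA was found for 5 of 12 cytosolic genes (Aars, Gars, Iars, Tars and Yars) and for 0 of 14 mitochondrial genes, against 3.97% of all 32851 promoters of the table. Members were counted per gene and the background per promoter, so the shares are not in the same unit. A match describes letters and not binding, and members were chosen with results known, so no test was made. The windows of the 3 genes whose match lies before the RefSeq start are printed, to show where the letters stand, 5′ to 3′ on the strand of the gene, with the matched letters, which read TGATGNAA on the other strand, in capitals. They are Gars at chr6:55037941-55038000 on the plus strand, Aars at chr8:111033700-111033767 on the plus strand and Tars at chr15:11399659-11399703 on the minus strand.
Gars: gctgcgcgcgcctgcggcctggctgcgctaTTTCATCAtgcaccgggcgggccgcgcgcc
Aars: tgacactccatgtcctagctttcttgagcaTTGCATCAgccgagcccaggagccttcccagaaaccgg
Tars: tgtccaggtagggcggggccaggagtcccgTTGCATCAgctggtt

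The matched letters begin 30 bases before the RefSeq start in Gars, 112 before in Aars and 15 before in Tars, and Aars and Tars carry the same 8 letters. The RefSeq start of Aars lies 698 bases after the start of the gene in GENCODE vM21, so its window is inside the gene in that annotation, and that of Yars lies 143 bases after it. Iars holds TTGCATCA from position 8 and Yars TGATGCAA from position 4 after the start, and Aars has another match, TTTCATCA, from position 10. All 5 genes with a match fell at 2% oxygen in control cells, with log2 fold changes of -1.28 (Aars), -1.14 (Tars), -1.05 (Iars), -0.71 (Yars) and -0.55 (Gars). Of all 19 cytosolic genes 14 fell, and 39.6% of all tested genes were called lower. A link between the letters and the fall was not tested. Of the other 7 cytosolic genes with a promoter in the table, Eprs, Farsb and Sars fell with no match in this window, while Dars, Kars and Qars rose and Farsa was not called. The E-box CACGTG, a site that Myc and other factors bind, was found for 4 of the 12 cytosolic genes (Aars, Farsb, Iars and Tars) and for 1 of the 14 mitochondrial ones (Ears2), against 7.15% of all promoters. In no gene did it overlap a TGATGNAA match.

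Mitochondrial genes changed less and in both directions. Mars2, the methionine enzyme, went from 14.6, 14.5, 15.2 and 15.6 CPM at 20% oxygen to 6.78, 7.25, 7.12 and 6.63 CPM at 2% in control cells, a log2 fold change of -1.11 ± 0.0648 (SE; edgeR adjusted p = 2.24e-12). Rars2, the arginine enzyme, went from 46.1, 46.8, 46.9 and 44.5 CPM to 21.9, 25.1, 23.5 and 19.8 CPM, a log2 fold change of -1.03 ± 0.0524 (SE; edgeR adjusted p = 2.28e-13). Every low-oxygen library lay far below the libraries at 20% oxygen for both genes. Ears2 (glutamate) fell from 18 to 20.8 CPM to 11.5 to 13 CPM and Cars2 (cysteine) from 14.5 to 16.6 to 9.12 to 10.9 CPM, log2 fold changes of -0.64 ± 0.0616 and -0.63 ± 0.0741 (SE). Yars2 fell by 0.55 on the log2 scale, and Lars2, Nars2, Tars2 and Hars2 fell by 0.18 to 0.26, of which Nars2 and Hars2 overlapped between the oxygen levels. Without overlap 7 of the 16 mitochondrial genes lay lower and 3 higher, where 35.3% and 34.9% of all tested genes did so. Without control replicate 4 at 2% oxygen 9 lay lower and 3 higher.

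Aars2, Fars2 and Vars2 rose. Aars2, the mitochondrial alanine enzyme, had 16.6, 15.5, 17.5 and 15 CPM at 20% oxygen and 23.1, 24.2, 23.2 and 24.7 CPM at 2%, a log2 fold change of 0.56 ± 0.0515 (SE; edgeR adjusted p = 3.36e-09), while its cytosolic counterpart Aars was among the largest falls. Fars2, the phenylalanine enzyme, had 14.9, 14.9, 13 and 14.2 CPM and 19.3, 18.3, 18.3 and 22.7 CPM, a log2 fold change of 0.46 ± 0.0664 (SE; edgeR adjusted p = 2.52e-06). Vars2, the valine enzyme, had 40, 44.6, 43 and 45.5 CPM and 55.6, 54.7, 53.9 and 53 CPM, a log2 fold change of 0.33 ± 0.0393 (SE; edgeR adjusted p = 1.98e-07). None of the 3 overlapped between the oxygen levels. Iars2, Sars2, Wars2 and Pars2 were not called, at log2 fold changes of -0.07, -0.05, 0.04 and 0.12.

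In MCT4-KO cells low oxygen also lowered most cytosolic synthetase genes and raised a few. Of the 19 cytosolic genes 14 fell and 5 rose, with a median log2 fold change of -0.43, and of the 16 mitochondrial genes 10 fell, 3 rose and 3 were not called, with a median of -0.18. Of all tested genes 76.4% were called, 38.7% lower and 37.7% higher. Without overlap, 14 cytosolic genes lay lower and 5 higher, where 36.5% and 35.9% of all genes did. This comparison and that in control cells share no library, and the low-oxygen and knockout comparisons that use the same group share its libraries.

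The largest fall was again that of Wars, at 367, 334, 333 and 339.7 CPM at 20% oxygen and 129, 123, 133 and 132 CPM at 2% in MCT4-KO cells, a log2 fold change of -1.41 ± 0.0511 (SE; edgeR adjusted p = 1.09e-15) against -1.95 in control cells. Aars went from 698, 672, 653 and 643 CPM to 354, 339, 349 and 347 CPM, a log2 fold change of -0.94 ± 0.039 (SE). Eprs went from 704, 681, 613 and 628 CPM to 365, 353, 373 and 370.5 CPM, a log2 fold change of -0.85 ± 0.0612 (SE). In these 3 genes no library at 2% oxygen reached a library at 20%, in either genotype. Tars, at -0.78, Lars, at -0.78, and Iars, at -0.77, came next.

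The risers were Dars, Kars, Hars, Qars and Farsa. Dars reached 476, 446, 459 and 453 CPM from 249, 256, 247 and 248 CPM, a log2 fold change of 0.87 ± 0.0299 (SE; edgeR adjusted p = 4.20e-16). Kars reached 304, 296, 299.6 and 295 CPM from 195, 188, 193 and 195 CPM, a log2 fold change of 0.63 ± 0.0355 (SE; edgeR adjusted p = 1.34e-12). Hars reached 102, 95.5, 101 and 94.3 CPM from 83.4, 77.1, 75.9 and 76.5 CPM, a log2 fold change of 0.33 ± 0.0388 (SE; edgeR adjusted p = 1.80e-07). Groups did not overlap in these 3 genes. Qars, at 0.24 ± 0.0347 (SE), and Farsa, at 0.17 ± 0.0442 (SE), rose by less, and scaling by library size gave 0.07 for Qars and -0.01 for Farsa, neither of them called (edgeR adjusted p = 0.0892 and 0.874).

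Of the mitochondrial genes Vars2 rose from 42.1, 41.5, 43.4 and 40.4 CPM to 60.6, 59.2, 60.6 and 62.1 CPM in MCT4-KO cells, a log2 fold change of 0.53 ± 0.0388 (SE). Aars2 rose from 14.8, 15.6, 15.7 and 16 CPM to 21.8, 21.3, 23.2 and 22.8 CPM, a log2 fold change of 0.52 ± 0.0515 (SE). Cars2 fell from 15.1, 14.7, 17.2 and 15.8 CPM to 9.28, 10.1, 8.29 and 9.36 CPM, a log2 fold change of -0.77 ± 0.0736 (SE), the largest fall of the mitochondrial class in these cells. In these 3 genes the oxygen levels did not overlap. Mars2 fell by 0.65 and Rars2 by 0.45 on the log2 scale. Wars2, the mitochondrial tryptophan enzyme, fell from 11.3, 12.1, 11.2 and 12.5 CPM to 7.73, 9.82, 8.99 and 8.51 CPM, a log2 fold change of -0.43 ± 0.0651 (SE), whereas in control cells it had 10.3, 10.6, 11.1 and 11.1 CPM at 20% and 11, 11.2, 11 and 11.2 CPM at 2% oxygen. The low-oxygen libraries of Wars2 were thus lowest in MCT4-KO cells and within the range of the other groups in control cells. Fars2, which rose in control cells, had 13.3, 14.2, 14.5 and 13.9 CPM and 15.1, 16.1, 14.3 and 15 CPM and was not called at 0.11 ± 0.0678 (SE). Pars2 (proline) was called higher at 0.20 ± 0.0734 (SE) with overlapping groups, and it was not called without replicate 1 of the MCT4-KO group at 20% (0.15) or at 2% oxygen (0.17) or with library-size scaling (0.02).

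Several measures moved with oxygen alongside these genes, and their part in the results was not tested. TMM factors were 1.06 to 1.08 at 20% oxygen and 0.912 to 0.953 at 2%. The share of counts from mitochondrially encoded genes was 0.605% to 0.984% at 20% and 0.241% to 0.413% at 2%. The 12 myeloid progenitor markers summed to 4566 to 5009 CPM at 20% and to 7899 to 8753 CPM at 2%, and the 3 megakaryocyte markers to 0.489 to 1.18 CPM and 2.74 to 4.99 CPM. Pf4 made up most of the megakaryocyte rise, with 0.0435 to 0.238 CPM at 20% and 1.79 to 4.12 CPM at 2% oxygen. Itga2b had 0.333 to 0.882 CPM and 0.320 to 0.907 CPM. The rise of the progenitor sum was that of Elane and Prtn3, granule protease genes, which together had 1020 to 1414 CPM at 20% and 4616 to 5187 CPM at 2% oxygen, while the other 10 markers summed to 3529 to 3761 CPM and 3283 to 3603 CPM. Of the 12 markers 5 rose and 7 fell in control cells, with a median log2 fold change of -0.13, and 5 rose and 5 fell in MCT4-KO cells, with a median of -0.06. In bulk RNA, fewer cells with a given transcript and less of it per cell cannot be told apart. With library-size scaling the median over all genes moved to -0.22 in control and -0.19 in MCT4-KO cells, and the calls over all genes split into 3874 higher and 7121 lower in control cells, against 5332 and 5458 with TMM, and into 3797 and 6942 in MCT4-KO cells, against 5189 and 5331.

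Knockout of MCT4 at 20% oxygen gave 1 call among the 35 synthetase genes. Of the 19 cytosolic genes 1 was called lower and 18 were not called, with a median log2 fold change of 0.00, and of the 16 mitochondrial genes 0 were called by edgeR, with a median of 0.01. The background in this comparison was 9.76% of all tested genes called, 4.80% lower and 4.96% higher. At an unadjusted p under 0.05, edgeR had 1 mitochondrial gene higher and 1 lower, and DESeq2 and limma-voom called 0 after adjustment. The gene called was Wars, with 367, 334, 333 and 339.7 CPM in MCT4-KO against 367, 415, 408 and 383 CPM in control cells, a log2 fold change of -0.20 ± 0.0491 (SE; edgeR adjusted p = 0.014). The highest MCT4-KO library was level with the lowest control library, and the call was lost without control replicate 2 (-0.17, edgeR adjusted p = 0.0544) or without MCT4-KO replicate 2 or 3 (both -0.18, edgeR adjusted p = 0.0533 and 0.0523). Dars and Rars2 lay lower and Wars2 higher in every MCT4-KO library at 20% oxygen, at log2 fold changes of -0.06, -0.14 and 0.13, and none of them passed the test (Rars2 did, at -0.13, without control replicate 4 of the 2% group); over all genes 7.68% were higher and 6.89% lower without overlap.

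At 2% oxygen the same knockout went with higher levels of most cytosolic synthetase genes. Of 19, 15 were called higher, 1 (Qars) lower and 3 (Dars, Sars and Vars) were not called, with a median log2 fold change of 0.24. Of the 16 mitochondrial genes 5 were higher, 3 lower and 8 not called, with a median of 0.10. Over all tested genes 38.4% were called, 19.4% higher and 19.1% lower, and the median was 0.00. Without the control replicate 4 that stood apart, 16 cytosolic genes were higher and 1 lower, now with Vars (0.11), and 5 mitochondrial genes were higher and 3 lower, with Nars2 (0.20) in place of Iars2 (0.09). With library-size scaling 17 cytosolic genes were higher and 0 lower, 8 mitochondrial genes were higher and 3 lower, and all genes split into 3437 higher and 2007 lower, against 2671 and 2624 with TMM. Other measures also differed between the genotypes at 2% oxygen, and their part in these results was not tested: TMM factors were 0.912 to 0.927 in control and 0.944 to 0.953 in MCT4-KO libraries, mitochondrially encoded genes took 0.241% to 0.338% and 0.330% to 0.413% of the counts, and the 12 myeloid progenitor markers summed to 8407 to 8753 CPM and 7899 to 8317 CPM, with 2 of them called higher and 6 lower. The 3 megakaryocyte markers summed to 3.50 to 4.99 CPM in control and 2.74 to 3.36 CPM in MCT4-KO libraries. Most of each sum was Pf4, which overlapped, at 2.46 to 4.12 CPM and 1.79 to 2.55 CPM.

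**Figure D3:**
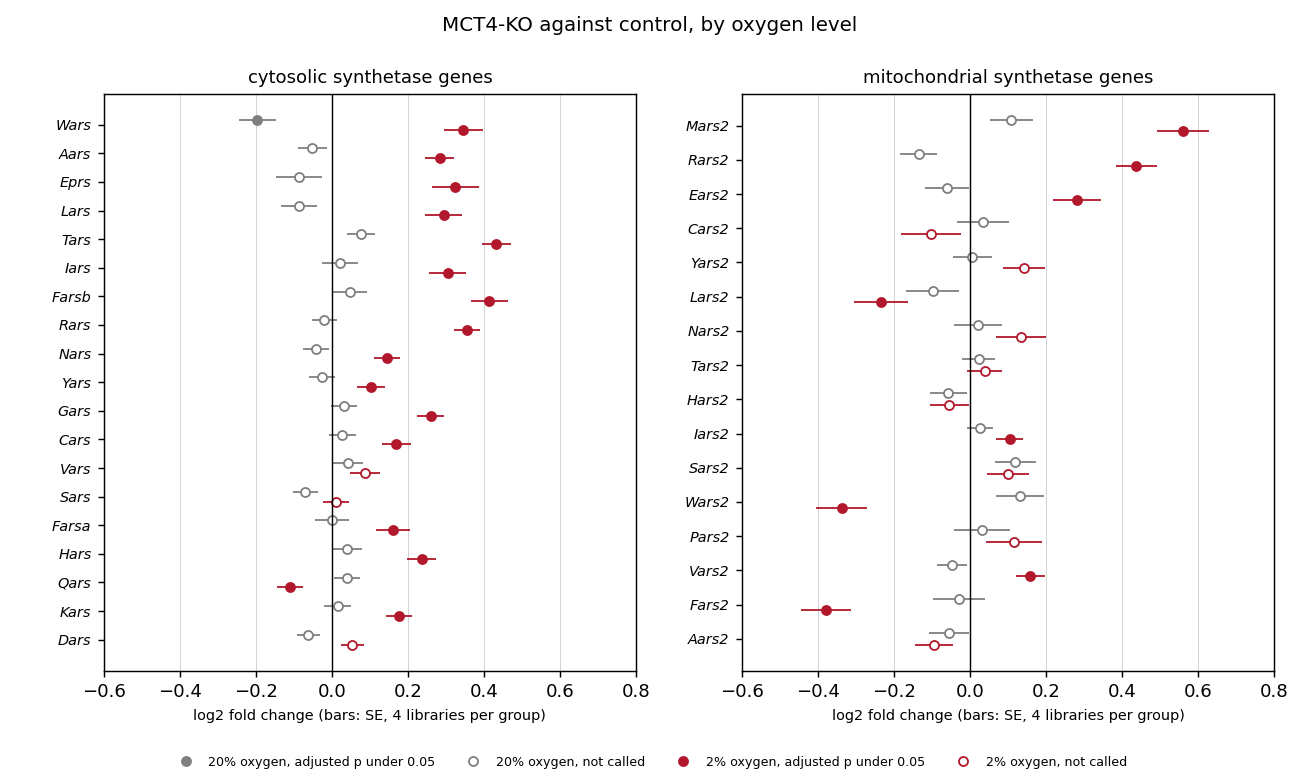
Log2 fold change of MCT4-KO against control cells for each gene at 20% (grey) and at 2% oxygen (red), with SE bars from 4 libraries per group; filled points passed an adjusted p of 0.05 and open points did not. Wars holds the 1 filled grey point; in the cytosolic panel the red points lie right of 0 except Qars, and in the mitochondrial panel Mars2 at 0.56 and Fars2 at -0.38 mark the ends.

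Tars rose most among the cytosolic genes: MCT4-KO libraries at 2% oxygen had 136, 129.6, 133 and 132 CPM and control libraries 94.6, 103, 95.6 and 99.7 CPM, a log2 fold change of 0.43 ± 0.038 (SE; edgeR adjusted p = 7.75e-08). Farsb had 81.6, 79.2, 87 and 88.4 CPM against 60.5, 68.4, 62.8 and 60.6 CPM, a log2 fold change of 0.41 ± 0.0482 (SE; edgeR adjusted p = 1.87e-06). Rars had 109.9, 107, 112 and 105 CPM against 85, 82.6, 84.6 and 87.2 CPM, a log2 fold change of 0.36 ± 0.0336 (SE; edgeR adjusted p = 1.71e-07). In each of these the lowest MCT4-KO library was well above the highest control library. Wars had 129, 123, 133 and 132 CPM against 95.9, 111, 107 and 94.3 CPM, a log2 fold change of 0.35 ± 0.0524 (SE; edgeR adjusted p = 3.34e-05), so it was lower in MCT4-KO cells at 20% oxygen and higher at 2%. The groups did not overlap at 2% oxygen.

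For 14 of the 19 cytosolic genes every MCT4-KO library at 2% oxygen lay above every control library, where 18.5% of all genes did so, and for 16 without control replicate 4. Aars at 0.28, Eprs at 0.32, Iars at 0.30 and Lars at 0.29 had log2 fold changes near 0.3. Gars (0.26), Hars (0.24), Kars (0.18), Cars (0.17), Farsa (0.16) and Nars (0.15) came between 0.15 and 0.26. Of these Farsa overlapped: control replicate 4, at 116.5 CPM, lay above MCT4-KO replicates 2 and 4, at 115.9 and 115.8 CPM. Yars, at 0.10 ± 0.0358 (SE; edgeR adjusted p = 0.0283), overlapped and lost its call when replicate 1 or 3 of either genotype was left out (0.07 to 0.10) or low counts were not filtered (0.11, edgeR adjusted p = 0.0551). Vars had no overlap but an edgeR adjusted p of 0.0893 at a log2 fold change of 0.09.

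Qars went the other way. It had 176, 169, 169 and 165 CPM in MCT4-KO and 189, 175, 186 and 181 CPM in control cells at 2% oxygen, a log2 fold change of -0.11 ± 0.0346 (SE; edgeR adjusted p = 0.0153). The groups overlapped by 1 value, and the call was lost without MCT4-KO replicate 4 (-0.10, edgeR adjusted p = 0.0537) and with library-size scaling (-0.07, edgeR adjusted p = 0.105). Over all tested genes 19.4% were called higher and 19.1% lower in this comparison. Of the 7 enzyme genes of the multisynthetase complex 5 were higher, Qars was lower and Dars was not called at 0.05. Its scaffold genes divided: Eef1e1 rose by 0.22 and Aimp2 by 0.16, while Aimp1 fell by 0.31 on the log2 scale, with 79.4 to 84.1 CPM in MCT4-KO libraries against 95.1 to 113 CPM.

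Of the 35 genes, those with the largest rise and the largest fall in the knockout comparison at 2% oxygen were both mitochondrial. Mars2 had 9.67, 10.4, 10.1 and 10.8 CPM in MCT4-KO against 6.78, 7.25, 7.12 and 6.63 CPM in control libraries, a log2 fold change of 0.56 ± 0.0685 (SE; edgeR adjusted p = 3.27e-06). Rars2 had 31.8, 29.1, 31.1 and 30.4 CPM against 21.9, 25.1, 23.5 and 19.8 CPM, a log2 fold change of 0.44 ± 0.0545 (SE; edgeR adjusted p = 3.89e-06). Ears2 had 14.1, 14.2, 14.7 and 16.3 CPM against 12.1, 12.2, 11.5 and 13 CPM, a log2 fold change of 0.28 ± 0.0637 (SE; edgeR adjusted p = 0.00161). In all 3 the MCT4-KO libraries lay above the control libraries without overlap and below the libraries at 20% oxygen. Vars2, already higher at 2% oxygen, was higher still in MCT4-KO cells with 60.6, 59.2, 60.6 and 62.1 CPM against 55.6, 54.7, 53.9 and 53 CPM, a log2 fold change of 0.16 ± 0.0384 (SE; edgeR adjusted p = 0.00273).

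Fars2, Wars2 and Lars2 fell with the knockout at 2% oxygen. Fars2 had 15.1, 16.1, 14.3 and 15 CPM in MCT4-KO against 19.3, 18.3, 18.3 and 22.7 CPM in control libraries, a log2 fold change of -0.38 ± 0.0663 (SE; edgeR adjusted p = 0.000152). Wars2 had 7.73, 9.82, 8.99 and 8.51 CPM against 11, 11.2, 11 and 11.2 CPM, a log2 fold change of -0.34 ± 0.0669 (SE; edgeR adjusted p = 0.000485). Lars2 had 234, 185, 226 and 242 CPM against 259, 245, 267 and 272 CPM, a log2 fold change of -0.23 ± 0.0712 (SE; edgeR adjusted p = 0.0134). In all 3 the groups did not overlap, but for Lars2 the result rests on MCT4-KO replicate 2, the lowest at 185 CPM: without it the log2 fold change was -0.15 and the edgeR adjusted p 0.0601. For phenylalanine and tryptophan the cytosolic genes Farsa (with overlapping groups), Farsb and Wars rose in the same cells in which the mitochondrial genes Fars2 and Wars2 fell. Iars2 (isoleucine), the remaining gene called higher, had 0.10 ± 0.0352 (SE; edgeR adjusted p = 0.0242) with overlapping groups, and lost its call when control replicate 1 or 4 was left out, or MCT4-KO replicate 2 or 3 (all 0.09), or when low counts were not filtered (0.11, edgeR adjusted p = 0.0562).

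**Figure D4:**
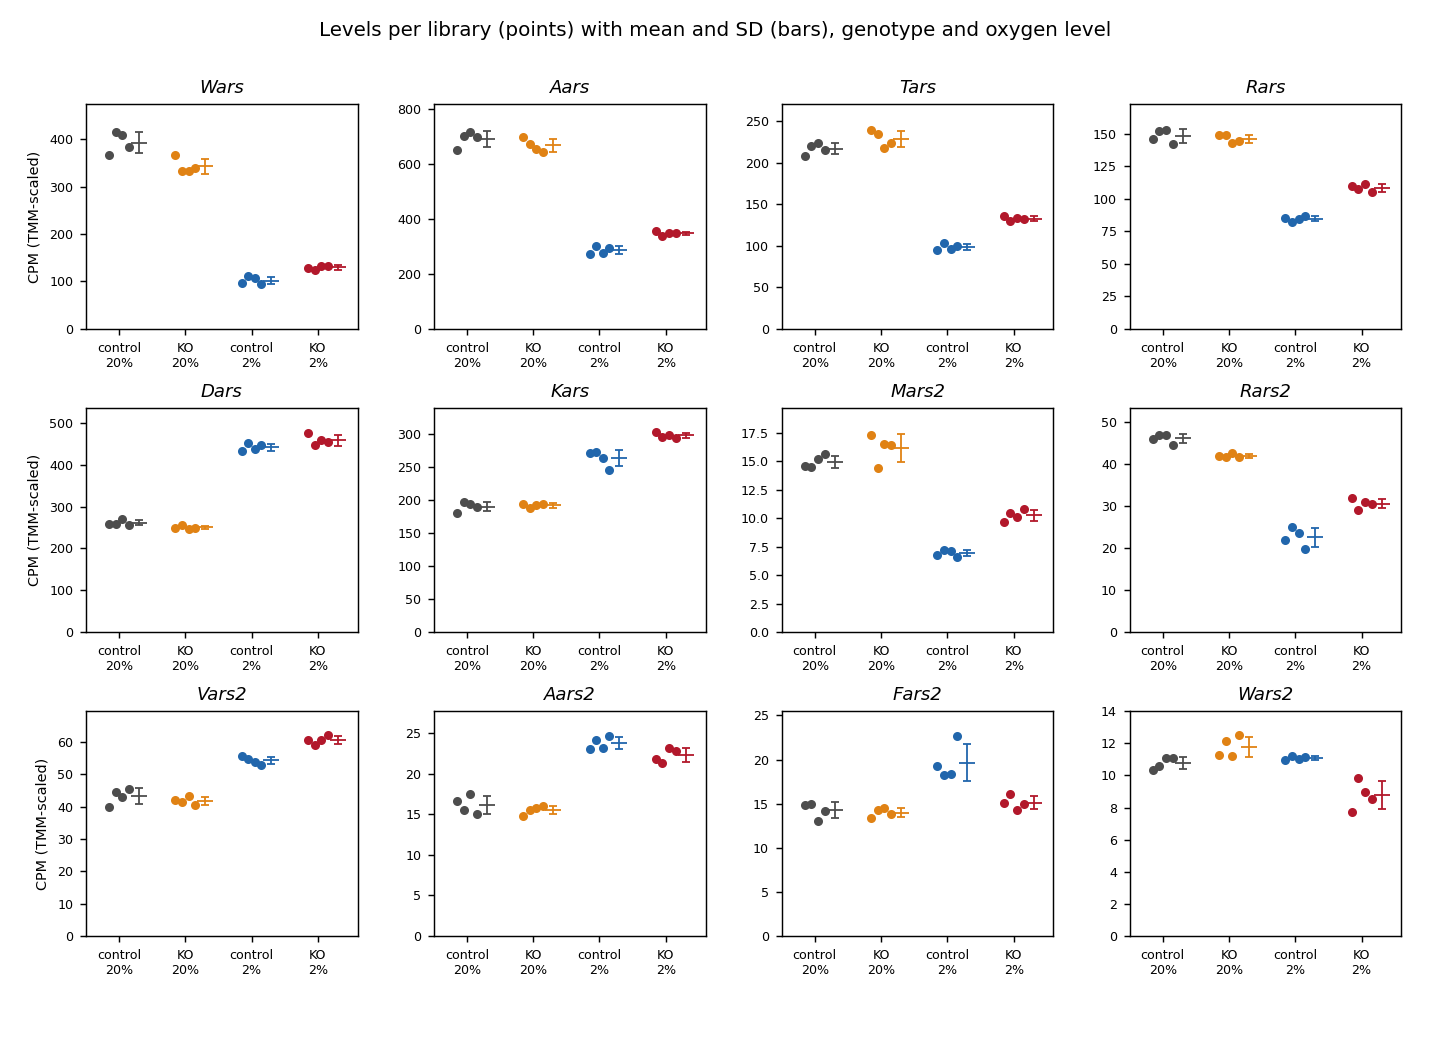
CPM of 12 genes in each library (points) with the group mean and SD (bars beside the points, n = 4), for control and MCT4-KO (KO) cells at 20% and 2% oxygen; each panel has its own axis from 0. Wars, Aars, Tars, Rars, Mars2 and Rars2 are lowest in control cells at 2% oxygen, Dars and Kars are highest at 2%, and Fars2 and Wars2 are lower in MCT4-KO than in control cells at 2%.

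The knockout effect itself differed between the oxygen levels for most cytosolic genes. The interaction (the log2 effect of the knockout at 2% minus that at 20% oxygen) was positive for 12 of 19 cytosolic genes, negative for 1 and not called for 6, with a median of 0.20. For the 16 mitochondrial genes it was positive for 4, negative for 2 and not called for 10, with a median of 0.05. Over all tested genes 22.9% were called, 11.6% positive and 11.3% negative. Without control replicate 4 of the 2% group, 16 cytosolic genes were positive and 1 negative, and the mitochondrial counts were 4 and 2.

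Among the cytosolic genes the interaction was 0.54 ± 0.0718 for Wars (SE; edgeR adjusted p = 3.73e-05), 0.41 ± 0.0862 for Eprs, 0.38 ± 0.068 for Lars and 0.38 ± 0.0465 for Rars (SE). Aars, Farsb, Gars, Hars, Iars, Kars, Nars and Tars made up the other 8 positive calls, at 0.16 to 0.37. Qars was the 1 negative call at -0.15 ± 0.0491 (SE; edgeR adjusted p = 0.0324), and it was lost without control replicate 3 or MCT4-KO replicate 3 at 20% oxygen, at 2% oxygen without replicate 1 or 3 of the control or 2, 3 or 4 of the MCT4-KO group (-0.13 to -0.15), when low counts were not filtered (-0.15) or with library-size scaling (-0.12). The call of Kars was lost without replicate 2 of the control (0.14) or the MCT4-KO group (0.15) at 20% oxygen or MCT4-KO replicate 1 at 2% (0.15), or when low counts were not filtered (0.16, edgeR adjusted p = 0.0525). Cars, Dars, Farsa, Sars, Vars and Yars had no call, and of these Cars, Dars, Farsa and Yars were called without control replicate 4 of the 2% group, at 0.15, 0.12, 0.21 and 0.15. Among the mitochondrial genes Rars2 (0.57 ± 0.0728, SE; edgeR adjusted p = 2.55e-05), Mars2 (0.45 ± 0.0887, SE), Ears2 (0.34 ± 0.0857, SE) and Vars2 (0.21 ± 0.0553, SE) were positive, and Wars2 (-0.47 ± 0.0918, SE; edgeR adjusted p = 0.00102) and Fars2 (-0.35 ± 0.0949, SE) were negative.

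Cytosolic and mitochondrial genes for the same amino acid could be set side by side in 16 pairs, each as a ratio within a library. The ratio is of CPM and not per length, so its change is read and not its size. In control cells the ratio fell at 2% oxygen without overlap in 12 pairs and rose in 3, and in MCT4-KO cells it fell in 10 and rose in 2. Aars over Aars2 went from 42.9 ± 3.47 at 20% to 12 ± 0.332 at 2% oxygen in control cells (SD, n = 4), and from 43 ± 3.06 to 15.6 ± 0.558 in MCT4-KO cells. Wars over Wars2 went from 36.5 ± 1.98 to 9.19 ± 0.705 in control cells and from 29.2 ± 2.47 to 14.9 ± 1.77 in MCT4-KO cells. Both ratios moved toward the mitochondrial gene at 2% oxygen in both genotypes, and at 2% oxygen both were higher in every MCT4-KO library than in any control library.

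The 3 pairs whose ratio rose in control cells were Cars over Cars2, Hars over Hars2 and Rars over Rars2, and the ranges of Yars over Yars2 overlapped. Between genotypes the ratio at 2% oxygen was higher in MCT4-KO libraries without overlap in 9 of the 16 pairs, overlapped in the other 7, and at 20% oxygen it was higher in 1 and lower in 2. Eprs and Fars2 each enter a pair of ratios, so the 16 pairs are not independent. Ratios of other gene pairs were not counted, so these counts have no background of their own. Of single genes, 35.3% lay lower and 34.9% higher without overlap at 2% oxygen in control cells. For the knockout at 2% oxygen 18.5% lay higher and 18.5% lower. Without control replicate 4 at 2% oxygen the counts were again 12 and 3 for low oxygen in control cells and 9 for the knockout at 2%.

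**Figure D5:**
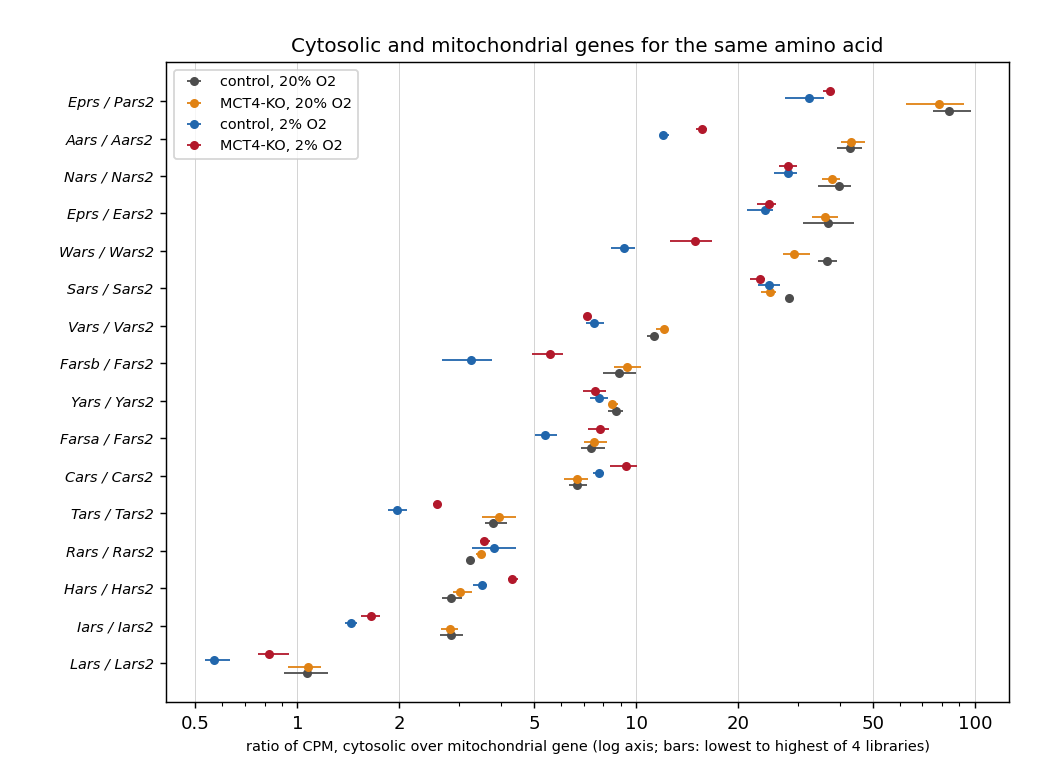
Ratio of CPM of the cytosolic over the mitochondrial gene for the same amino acid (log axis) in 4 groups; points are means and bars run from the lowest to the highest of 4 libraries. For Aars, Wars, Farsb, Tars, Iars and Lars the blue point (control, 2% oxygen) lies furthest left and the red one (MCT4-KO, 2% oxygen) between it and the 20% points.

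Genes that work beside the synthetases were described from lists chosen with earlier results known, and their counts stand beside a background, over all tested genes, of 78.3% called for low oxygen in control cells, 76.4% in MCT4-KO cells, 38.4% for the knockout at 2% oxygen and 9.76% at 20%. Atf4 had 860.4, 866, 819.8 and 803 CPM in control cells at 20% oxygen and 269, 329, 292 and 329 CPM at 2%, a log2 fold change of -1.46 ± 0.0513 (SE; edgeR adjusted p = 5.26e-16). In MCT4-KO cells it had 792, 785, 796 and 799 CPM and 334, 306, 332 and 335 CPM, a log2 fold change of -1.28 ± 0.051 (SE). Atf4 RNA was not called for the knockout, at 0.10 ± 0.0509 (SE; edgeR adjusted p = 0.132) at 2% oxygen, but it was without control replicate 4 (0.14, edgeR adjusted p = 0.0368). It was not called at 20% oxygen either, where every MCT4-KO library lay below every control library, as 6.89% of all genes did. Atf4 is known to be regulated mainly in translation, which these data do not measure. Of 27 other genes known to respond to Atf4, 23 fell and 3 rose at 2% oxygen in control cells, with a median of -0.97, and 23 fell and 3 rose in MCT4-KO cells, with a median of -0.75. With the knockout at 2% oxygen 16 were higher and 4 lower, with a median of 0.16 (17 and 3, with a median of 0.20, without control replicate 4), and at 20% oxygen 4 were higher and 3 lower.

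Among these 27 genes were Slc7a11, a cystine carrier, Cth, an enzyme that makes cysteine, and Xpot, the exporter of transfer RNA from the nucleus. Xpot had 437, 440.0, 460.0 and 443 CPM in control cells at 20% oxygen and 149, 167, 157 and 149 CPM at 2%, and 197, 193, 196 and 194 CPM in MCT4-KO cells at 2%. Its log2 fold changes were -1.51 ± 0.0404 for low oxygen in control cells and 0.32 ± 0.0404 for the knockout at 2% oxygen (SE), with no overlap in either comparison. Slc7a11 changed by -3.13 and 0.90 and Cth by -2.14 and 0.43 in the same comparisons. Not all of the list moved this way: Atf5 and Nupr1, themselves transcription regulators of stress, fell with low oxygen in control cells (-2.61 and -1.89) and fell again with the knockout at 2% (-0.51 and -0.73). The other genes of uncharged-tRNA sensing are Eif2ak4, Gcn1l1 (Gcn1, an activator of Gcn2) and Eif2s1 (the alpha subunit of eIF2, the target of Gcn2). With low oxygen Eif2ak4 was called higher in both genotypes (0.12 and 0.17), Eif2s1 fell in both (-0.38 and -0.15), and Gcn1l1 fell in control cells (-0.29) and was not called in MCT4-KO cells (-0.08). With the knockout at 2% oxygen Gcn1l1 rose by 0.22 and Eif2s1 by 0.12, whereas at 20% oxygen Eif2s1 was lower in every MCT4-KO library, with 223 to 235 CPM against 239.7 to 254 CPM (-0.11; edgeR adjusted p = 0.0246).

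Mitochondrial genes that act before and after charging were examined in the same way, with 78.3% of all tested genes called for low oxygen in control cells and 38.4% for the knockout at 2% oxygen. The list of partners in charging holds Qrsl1, Gatb and Gatc, which turn glutamate on a transfer RNA into glutamine, and Mtfmt, which formylates the initiator methionine. All 4 fell at 2% oxygen in control cells, from -0.74 for Qrsl1 to -0.29 for Mtfmt, and with the knockout at 2% oxygen Mtfmt alone was called, at 0.21 ± 0.0611 (SE). Of 9 genes that process or modify mitochondrial transfer RNA, 7 fell and 1 rose with low oxygen in control cells, and 5 were higher and 4 not called with the knockout at 2% oxygen (6 higher without control replicate 4). The RNase Z gene Elac2 had 52.4, 49.6, 53.1 and 49.6 CPM in MCT4-KO against 35.1, 36.4, 38.6 and 38.7 CPM in control cells at 2% oxygen, a log2 fold change of 0.46 ± 0.0393 (SE; edgeR adjusted p = 5.39e-08). Of 9 mitochondrial translation factors 4 were higher and 1 (Mtif3) lower in that comparison, with Gfm2, a ribosome recycling factor, at 0.30 ± 0.0363 (SE).

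Proteins that clear misacylated transfer RNA made up a last list. Of Aarsd1, Prorsd1, Dtd1 and Dtd2, with the knockout at 2% oxygen Prorsd1 fell (-0.34 ± 0.0517, SE) and the other three were not called, against 38.4% of all genes (Aarsd1 was called at 0.14, edgeR adjusted p = 0.0226, without control replicate 4). With low oxygen in control cells Aarsd1 and Dtd2 rose (0.23 and 0.18), Dtd1 fell (-0.13) and Prorsd1 was not called (0.08), against 78.3% of all genes called.

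The likeness of patterns over the 16 libraries was described by Pearson's r of log2 CPM among the 35 genes, where the libraries fall into 4 groups and share their scaling, so r mostly reflects the group means and has no p. Wars was most like Aars (r = 0.995) and Nars (r = 0.994) and least like Qars (r = -0.968). Mars2, though mitochondrial, was most like the cytosolic genes Farsb (r = 0.984), Tars (r = 0.980) and Gars (r = 0.978). Dars was most like Kars (r = 0.970), Aars2 (r = 0.969) and Vars2 (r = 0.956), which are risers of both classes.

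Counting could divide reads between overlapping genes, since the strand setting is not given in the sources used here. Exons of 12 of the 35 genes overlap those of another gene in GENCODE vM21 (GRCm38). They include 195 bases shared by the divergent neighbours Hars and Hars2, 616 shared by Fars2 (chr13:36117412-36726280, plus strand) with Nrn1 and Lyrm4, and 1403 shared by Aars (chr8:111033144-111057664, plus strand), mostly with Exosc6 on the same strand. The longest overlap, 2148 bases, was that of Iars2 (chr1:185284726-185329396, minus strand) with Rab3gap2 and 2010103J01Rik on the opposite strand. Farsb, Cars, Yars, Cars2, Ears2, Nars2 and Vars2 overlap other genes as well. Of the words of 31 bases in Iars2 exons 23.6% recur elsewhere, nearly all of them in Rab3gap2, and of those in Aars exons 14.4%, nearly all in Exosc6. Of the words of 31 bases in Iars exons, 14.7% recur elsewhere, nearly all of them in the pseudogene Gm4849. Wars (chr12:108860030-108894174, minus strand), Rars (chr11:35808381-35834506, minus strand), Gars, Lars, Nars, Aars2, Rars2 and Yars2 shared 0% of such words with other genes, and the exons of Wars and Aars2 overlap no other gene.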

How the data were processed

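Poly(A)-selected RNA was sequenced in 16 libraries, 4 for each genotype and oxygen level, per the labels. The authors deposited 1 table of expected counts per Ensembl gene, and 10.1% of its values were not whole. The submitters' processing notes name HISAT2, RSEM and the mm10 build, and the sources used here do not give versions, annotation or strand setting. Expected counts were rounded for testing. Symbols came from GENCODE vM21 (GRCm38), which with the table's identifiers gave 53706 of 53801 a symbol.

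Low counts were filtered with filterByExpr in edgeR 4.0.16 under R 4.3.3, and the 13774 genes left held 99.9% of the counts. After TMM scaling the libraries were modelled together with 4 group means, leaving 12 degrees of freedom, with a coefficient of biological variation of 4.61%, and 5 comparisons were tested with the quasi-likelihood F-test, adjusted by Benjamini-Hochberg over all genes. The threshold for a call was an adjusted p of 0.05, and SE is the log2 fold change over the root of F. The test was tried on counts simulated for the knockout at 20% oxygen, with changes given to genes drawn from all tested genes. It recovered 58% of 50 genes changed 1.2-fold, 74% at 1.5-fold, 72% at 2-fold and 88% at 3-fold. Of its calls 5.19% were false. Levels per kilobase used the union of annotated exons. Intervals are not given, and the floor of 3 counts covers counting error only.

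The members and all gene lists were chosen with earlier results of these data known. Values in every library are given for up to 4 called members with the largest rise and fall per class and comparison, groups without overlap first, besides Slc16a3 and Atf4. Genes of other lists could be named if they were among the 4 called with the smallest adjusted p in a comparison or in a list of 4 or fewer; Mtif3 was named after its value was seen, as the 1 gene called lower. The main fit did not pair libraries by replicate number, and their correlations cannot show whether same-numbered libraries shared a culture. Alternatives were DESeq2 size factors, library-size scaling, no filter, at least 1 CPM in 8 libraries, limma-voom (limma 3.58.1), DESeq2 1.42.0 with its Wald test, a replicate block, the compared groups alone, the longest transcript as length, and leaving out each library in turn. Counts of list genes, of ratios and of groups without overlap without control replicate 4 at 2% oxygen were added after seeing the data.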

Additional observations from a re-analysis of the deposited data

Results flagged for a closer look

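In 8 of 140 groups of 4 values, 1 library stood apart from the other three of its group by Dixon's test, and chance gives about 1 in 20. These were Cars (101 CPM, lowest), Gars (484 CPM, highest) and Hars (83.4 CPM, highest) in replicate 1 of the MCT4-KO group at 20% oxygen, and Dars (270.5 CPM, highest) in control replicate 3 at 20%. At 2% oxygen they were Hars (88.9 CPM, highest) and Nars2 (18.7 CPM, highest) in control replicate 4, Gars (386 CPM, highest) in MCT4-KO replicate 1 and Yars2 (22.0 CPM, highest) in MCT4-KO replicate 4.

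For 19 members the knockout effect differed between 2% and 20% oxygen by edgeR's test of the interaction. The difference (2% minus 20%, log2) was above 0 for Wars (0.54), Eprs (0.41), Lars (0.38), Rars (0.38), Farsb (0.37), Tars (0.36), Aars (0.34), Iars (0.28), Gars (0.23), Hars (0.20), Nars (0.19) and Kars (0.16) among cytosolic genes. Among mitochondrial genes it was above 0 for Rars2 (0.57), Mars2 (0.45), Ears2 (0.34) and Vars2 (0.21). It was below 0 for Wars2 (-0.47), Fars2 (-0.35) and Qars (-0.15).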

How the results depend on the processing

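Of the calls, 29 of 30 for low oxygen in control cells, 28 of 32 in MCT4-KO cells, 20 of 24 for the knockout at 2% oxygen, 0 of 1 at 20% and 17 of 19 for the interaction held under every alternative. Library-size scaling turned Hars to -0.0756 (low oxygen, control) and Farsa to -0.0075 (low oxygen, MCT4-KO). It also gave median log2 fold changes for low oxygen of -0.92 (cytosolic) and -0.40 (mitochondrial) in control and -0.61 and -0.36 in MCT4-KO cells, 3 cytosolic genes higher in MCT4-KO cells, 0 cytosolic genes lower and 8 mitochondrial genes higher for the knockout at 2% oxygen, and 0 negative cytosolic interactions. Without a filter the last count was also 0. With the compared groups alone 1 mitochondrial gene, Rars2, was lower with the knockout at 20% oxygen. The longest transcript gave 12.3 for the ratio of class medians, and it changed the order of single genes, with Rars2 then below Cars. Leaving out single libraries gave 0 to 1 cytosolic and 0 to 1 mitochondrial genes lower with the knockout at 20% oxygen, and 0 to 1 cytosolic genes lower with the knockout at 2% oxygen and in the interaction. The call of Nars2 for low oxygen in MCT4-KO cells was lost under DESeq2 size factors (-0.14), no filter (-0.14), the stricter filter (-0.14) and the DESeq2 Wald test (-0.14), and without replicate 3 or 4 at 20% or 1, 2 or 3 at 2% oxygen (-0.13 to -0.15). The causes were not tested.

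Same-numbered libraries of different groups did not deviate together (r from -0.06 to 0.12, over 0.1 in 1 of 24 pairs). With the replicate number as a block, Yars lost its call for the knockout at 2% oxygen (0.10, edgeR adjusted p = 0.0536), other member calls held, and over all genes 1059 were called for the knockout at 20% oxygen against 1344 and 4984 against 5295 at 2%. Depth did not limit detection of any member, each of which had at least 145 counts in every library.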
